A study of Mus musculus with 6 samples.

Results

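The cytosolic chaperonin TRiC, also called CCT, is built from 8 related subunits encoded by the genes Tcp1, Cct2, Cct3, Cct4, Cct5, Cct6a, Cct7 and Cct8. The rows of all 8 were taken by symbol from a raw count table of 33157 rows, and all 8 were among the 13483 genes that could be tested. The RNA came from ILC3s, innate lymphoid cells of group 3, which live in the gut wall and make IL-22. They had been sorted from small intestines of mice that were wild-type. The sort kept CD45+ lineage-negative CD90.2-high CD127+ KLRG1-negative cells, and the cells were then held in complete RPMI medium for 4 h. In the IGF-1 group (3 libraries) the medium held mouse interferon-γ (IFN-γ) at 20 ng/mL and insulin-like growth factor 1 (IGF-1) at 200 ng/mL, and in the control group (3 libraries) it held IFN-γ at 20 ng/mL alone. No group was free of IFN-γ. Whether the libraries stand for different animals or cultures is not stated, so the spread behind each p-value may be technical.

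TRiC is a barrel made of a pair of stacked rings, each holding 1 copy of every subunit. It encloses newly made proteins in a chamber, closes a lid over them with the energy of ATP and releases them folded. Actin and tubulin depend on it, as do many proteins with a WD40 propeller. The chaperone prefoldin hands it unfolded actin and tubulin, and phosducin-like proteins modulate its cycle.

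With IGF-1, the fitted level of each of the 8 subunits was above that of the control cultures, by amounts that were small. The log2 fold changes of IGF-1 over control ranged from 0.02 for Cct2 to 0.32 for Tcp1, with a median of 0.19, against a median of -0.01 over all 13483 genes. None of the 8 passed a Benjamini-Hochberg adjusted p of 0.05 over all genes in edgeR's quasi-likelihood test (0 higher, 0 lower), where 0.23% of all genes were called higher and 0.267% lower. DESeq2 and limma-voom also called 0 of the 8. In simulated data the test called 2.13% of genes given a log2 fold change of 0.3, close to the largest value here. The 0 called subunits therefore do not show that these genes were unchanged. At an unadjusted p under 0.05, 2 subunits were higher by each of the 3 tools, namely Tcp1 and Cct8 by edgeR, while 5.58% of all genes met that mark upward and 6.24% downward by edgeR. At an adjusted p under 0.1, 0 subunits and 1.07% of all genes were called. A positive log2 fold change was found for 48.7% of all genes, and for 60% of the 2445 genes that averaged 100 CPM or more, the range in which all 8 subunits lie. In that range 11.2% of genes had an unadjusted p under 0.05 upward. The number of subunits at that mark was 4 without control replicate 1, 1 without IGF-1 replicate 1, and 0 without control replicate 3 or without IGF-1 replicate 2.

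Depth was 32573713 to 39206449 counts per library, and each subunit had between 6438 and 19166 counts in a library. Values below are CPM, in which each library's counts are brought to the same total after TMM scaling, and errors are SDs over n = 3 libraries per group. CPM is not scaled to transcript length and compares 1 gene between libraries, not genes with each other.

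Tcp1, the alpha subunit and the founding member of the family, had the largest fold change. It stood at 247, 256 and 225 CPM in IGF-1 replicates 1, 2 and 3, and at 198, 192 and 194 CPM in control replicates 1, 2 and 3. Every IGF-1 library lay above every control library, with means of 243 ± 15.8 CPM with IGF-1 and 195 ± 2.69 CPM in controls. The log2 fold change was 0.32 (SE 0.11, 95% interval 0.07 to 0.57), with an adjusted p of 0.286 from edgeR's test. Of all genes tested, 83.6% had a lower log2 fold change.

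Cct8, the theta subunit, whose forced expression raises assembly of the whole complex in human stem cells, was close behind. It had 493, 532 and 502 CPM in the IGF-1 libraries, in the order of their replicate numbers, against 412, 433 and 398 CPM in the control libraries. The groups did not overlap. Cct8 averaged 509 ± 20.4 CPM with IGF-1 and 414 ± 17.3 CPM in controls, a log2 fold change of 0.30 (SE 0.11, 95% interval 0.06 to 0.53, adjusted p = 0.298 in edgeR).

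Cct4, the delta subunit, in which a mutation causes a sensory neuropathy in rats, was the third whose groups did not overlap. It stood at 266, 285 and 256 CPM with IGF-1 and at 226, 244 and 224 CPM in controls. Its log2 fold change was 0.22 (SE 0.11, 95% interval -0.03 to 0.47, adjusted p = 0.490 in edgeR). Groups did not overlap, with IGF-1 above, for 3 of the 8 subunits, for 8.81% of all genes tested and for 16.1% of those averaging 100 CPM or more. The opposite, IGF-1 below, held for 0 subunits and 9.17% of all genes. For these 3 the exact two-sided permutation test over libraries gave p = 0.1, the smallest it can give for 3 against 3.

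Cct3 and Cct7, the gamma and eta subunits, shared a high value in 1 control library. Cct3 had 301, 337 and 318 CPM in IGF-1 replicates 1, 2 and 3, and 301, 253 and 258 CPM in control replicates 1, 2 and 3. Cct7 had 328, 374 and 362 CPM in the IGF-1 libraries, against 370.1, 291 and 287 CPM in the control libraries. In both genes control replicate 1 reached into the range of the IGF-1 libraries, while control replicates 2 and 3 lay below all of them. Cct3 had a log2 fold change of 0.23 (SE 0.12, 95% interval -0.03 to 0.50, adjusted p = 0.482 in edgeR), and Cct7 one of 0.17 (SE 0.13, 95% interval -0.13 to 0.46, adjusted p = 0.692 in edgeR). Without control replicate 1 these values were 0.32 for Cct3 (adjusted p = 0.23 in edgeR) and 0.30 for Cct7 (adjusted p = 0.267 in edgeR). Without control replicate 2 or 3, Cct7 was at 0.11 and 0.10.

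Cct6a, Cct5 and Cct2 showed the smallest differences. Cct6a, the zeta subunit of tissues other than testis, had 223, 259 and 249 CPM with IGF-1 and 231, 212 and 229.9 CPM in controls (log2 fold change 0.12, SE 0.12, 95% interval -0.14 to 0.38). Cct5, the epsilon subunit, in which mutations cause a sensory neuropathy in humans, had 403, 390.5 and 404 CPM with IGF-1, against 393, 394 and 350.1 CPM in controls (0.07, SE 0.11, 95% interval -0.17 to 0.32). Leaving out 1 library gave log2 fold changes of 0.07 (without IGF-1 replicate 2) to 0.18 (without IGF-1 replicate 1) for Cct6a and of 0.02 (without control replicate 3) to 0.10 (without control replicate 1) for Cct5. The groups overlapped in both, and the upper bounds of the intervals lie above the fitted change of Tcp1 for Cct6a and about level with it for Cct5.

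Cct2, the beta subunit, which in human cells is phosphorylated by kinases downstream of growth factor receptors, had 236, 239 and 210.1 CPM in the IGF-1 libraries and 218, 224 and 234 CPM in the control libraries. The lowest and the highest of these values both belonged to the IGF-1 group. Its log2 fold change was 0.02 (SE 0.11, 95% interval -0.23 to 0.27, adjusted p = 0.971 in edgeR), and its sign was negative with scaling by library size alone (-0.01) and without any 1 of 3 libraries (-0.02 at the lowest). Protein level and phosphorylation were not measured.

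**Figure D1:**
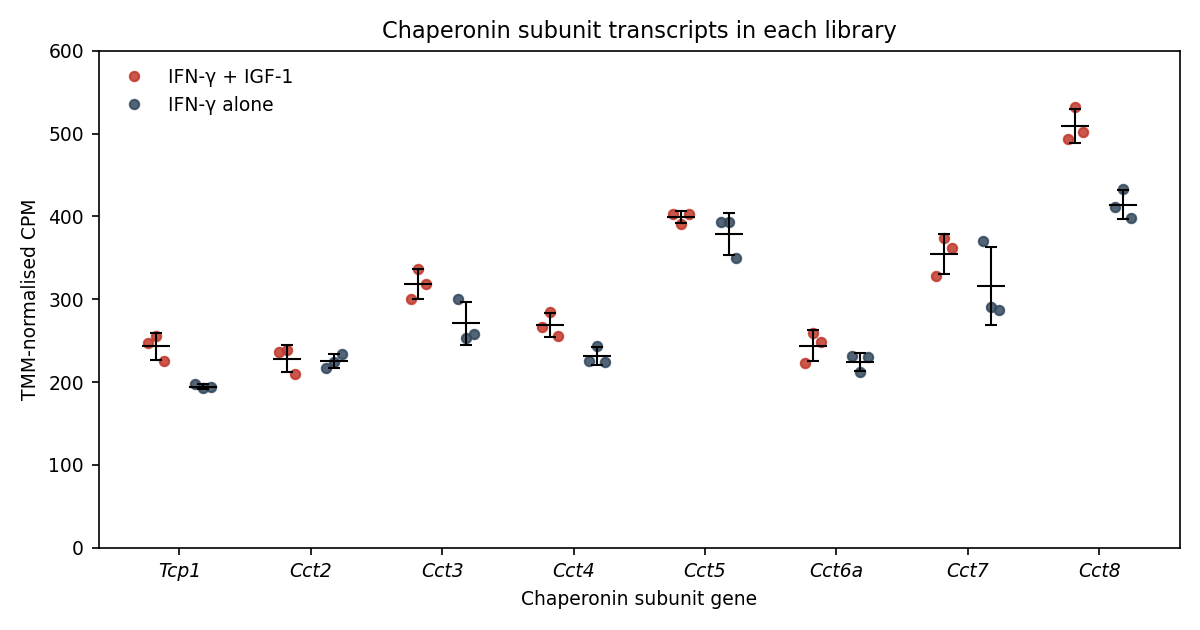
TMM-normalised CPM (vertical axis) of the 8 chaperonin subunit genes (horizontal axis) in each library, with IFN-γ plus IGF-1 at the left and IFN-γ alone at the right of each gene. Points are libraries, horizontal marks are means and error bars are SDs over n = 3. The groups are apart for Tcp1, Cct4 and Cct8 and overlap for the other 5 genes.

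**Figure D2:**
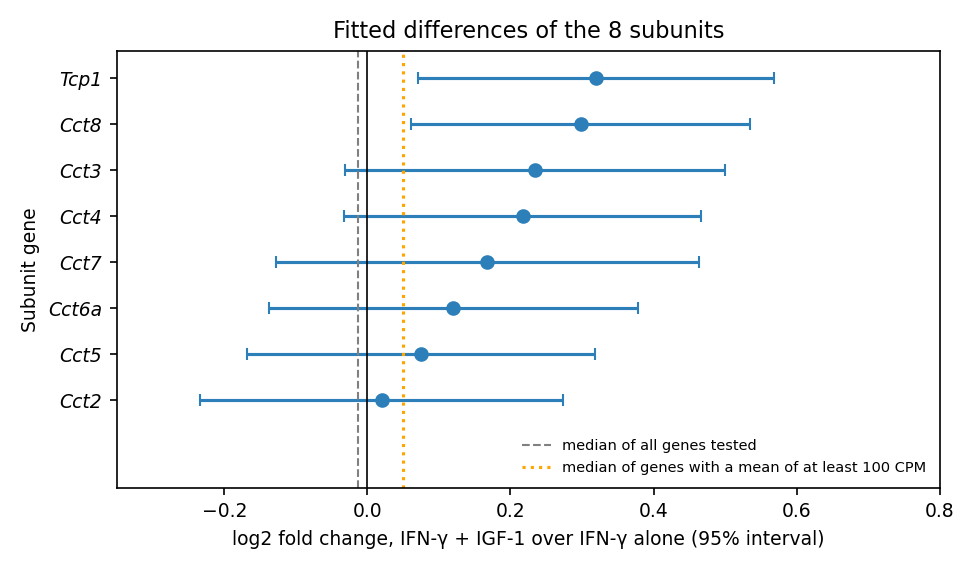
Log2 fold change of IGF-1 over control (horizontal axis) for each subunit (vertical axis), with 95% intervals from edgeR that are not adjusted for the number of genes. All 8 points lie above 0, but only the intervals of Tcp1 and Cct8 leave out 0; dashed and dotted lines mark the medians of all genes tested (-0.01) and of genes averaging 100 CPM or more (0.05).

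Summed over the 8 genes, the chaperonin took 2498, 2674 and 2526 CPM in IGF-1 replicates 1, 2 and 3, against 2348, 2243 and 2175 CPM in control replicates 1, 2 and 3. The sums did not overlap between groups. The share of counts from mitochondrially encoded mRNAs did not overlap either, but the groups nearly met. It was 2.31%, 2.06% and 2.01% in IGF-1 replicates 1, 2 and 3, and 2.00%, 1.99% and 1.62% in control replicates 1, 2 and 3. The number of genes detected (16156 to 17236 with IGF-1, 16915 to 17677 in controls) and the share of counts in the 50 most abundant genes (13.6% to 15.4% with IGF-1, 12.6% to 14.3% in controls) overlapped between the groups. The part of this small mitochondrial difference in the chaperonin's difference was not tested. In bulk samples a change in the kinds of cells present and a change of RNA per cell cannot be told apart.

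All 10 ILC3 markers examined were detected well enough to be tested, among them the cytokine receptor gene Il7r (417 ± 48.7 CPM with IGF-1, 458 ± 21.5 CPM in controls) and the receptor kinase gene Kit (657 ± 26.5 and 690 ± 79.8 CPM in the same order). Eomes, the factor that defines natural killer cells, and the B cell marker Ms4a1 had 0 counts in all libraries. Other markers of these cell types were detected. Klrb1c, in the natural killer cell list, stood at 30.7 ± 4.66 CPM with IGF-1 and 38.2 ± 4.89 CPM in controls. Cd79b, in the B cell list, stood at 32.7 ± 4.29 CPM with IGF-1 and 26.5 ± 8.99 CPM in controls. Summed levels overlapped between the groups for the marker lists of T cells (36.3 to 47.9 CPM with IGF-1, 43.3 to 50.8 CPM in controls), B cells, myeloid cells, natural killer cells, ILC2s, stromal and endothelial cells, dividing cells (214 to 231 CPM with IGF-1, 189 to 239 CPM in controls) and nuclear noncoding RNAs (1160.0 to 2209 CPM with IGF-1, 1578 to 2860.0 CPM in controls). Single members of these lists had groups that did not overlap: Prf1 (5.38 ± 1.36 CPM with IGF-1, 2.02 ± 0.572 CPM in controls), a killer cell gene, and Birc5 (3.73 ± 0.133 CPM with IGF-1, 1.75 ± 0.970 CPM in controls), a mitosis gene, were higher in every IGF-1 library. Cd4 (23.1 ± 4.23 CPM with IGF-1, 33.3 ± 2.73 CPM in controls) and Pecam1 (80.3 ± 3.73 CPM with IGF-1, 93.4 ± 14.5 CPM in controls) were lower in every IGF-1 library, and none of these 4 passed the test over all genes in edgeR. The 6 epithelial markers summed to 14.9 to 22.1 CPM with IGF-1 and 33.01 to 48.5 CPM in controls, nearly all of it Epcam (17.6 ± 3.28 CPM with IGF-1, 38.6 ± 6.97 CPM in controls), while Krt8, Krt18, Krt20, Vil1 and Cdh1 were each under 1 CPM on average in both groups. The part of these shifts in the chaperonin's difference was not tested.

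To compare subunits with each other, CPM were divided by the length of each gene's principal transcript in GENCODE M21. On this scale, CPM per kb, the levels of the 8 genes lay within a factor of 2.12 to 2.70 of each other in every library, although the assembled ring holds the 8 proteins in equal numbers. Cct5 and Cct8 were the most abundant, at 215 ± 4.03 and 213 ± 8.50 CPM per kb in IGF-1 libraries, which is within their spread, and at 205 ± 13.5 and 173 ± 7.24 CPM per kb in controls. Cct3 followed (161 ± 9.26 CPM per kb with IGF-1, 137 ± 13.2 in controls), then Cct7 (145 ± 9.86 and 129 ± 19.3 in the same order), whose ranges meet. Cct2 stood at 117 ± 8.16 CPM per kb with IGF-1 and 115 ± 4.21 in controls. Cct4 (108 ± 5.87 with IGF-1, 93.1 ± 4.48 in controls), Cct6a (99.4 ± 7.52 and 91.5 ± 4.38 in the same order) and Tcp1 (99.4 ± 6.47 and 79.6 ± 1.10) were the least abundant, and in IGF-1 libraries Cct6a and Tcp1 did not differ beyond their spread. The order depends on the length used: with the length of all annotated exons, Cct8 stood at 165 ± 6.59 CPM per kb with IGF-1 and 134 ± 5.62 in controls, and Cct5 at 144 ± 2.70 with IGF-1 and 137 ± 9.03 in controls. Cct8 was thus first with IGF-1, and the pair lay within their spread in controls. Tcp1 had the lowest mean in both groups (48.3 ± 3.15 with IGF-1, 38.7 ± 0.535 in controls). With IGF-1, however, Tcp1 lay within the spread of Cct3 (50.01 ± 2.87) and Cct7 (52.33 ± 3.55). In IGF-1 replicate 1 it was above both (49.18 against 47.18 and 48.37 CPM per kb). By this length the means of Cct3 and Cct7 fell below those of Cct2, Cct6a and Cct4 in both groups. The factor of 2.12 to 2.70 holds for principal transcripts, and the levels lay further apart with all exons.

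The share of each subunit in the pool is given as a description, with no test. Of the summed CPM per kb of the 8 genes, Cct8 made up 18.4% ± 0.115 with IGF-1 and 16.9% ± 0.80 in controls, and Tcp1 made up 8.58% ± 0.446 with IGF-1 and 7.79% ± 0.234 in controls. For both genes the shares of the 3 IGF-1 libraries lay above those of the 3 control libraries, by 1.44 and 0.79 percentage points on average, and these are the genes with the largest fold changes. The shares of the other 6 subunits overlapped between the groups. The shares of Cct5 (18.6% ± 0.971 with IGF-1, 19.98% ± 0.851 in controls) and Cct2 (10.1% ± 0.637 with IGF-1, 11.3% ± 0.844 in controls) were lower on average with IGF-1. Of Tcp1, Cct2, Cct4 and Cct5, which bind ATP most tightly in yeast and cattle, the log2 fold changes were 0.32, 0.02, 0.22 and 0.07, with 95% intervals that overlapped, and the differences between subunits were not tested.

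**Figure D3:**
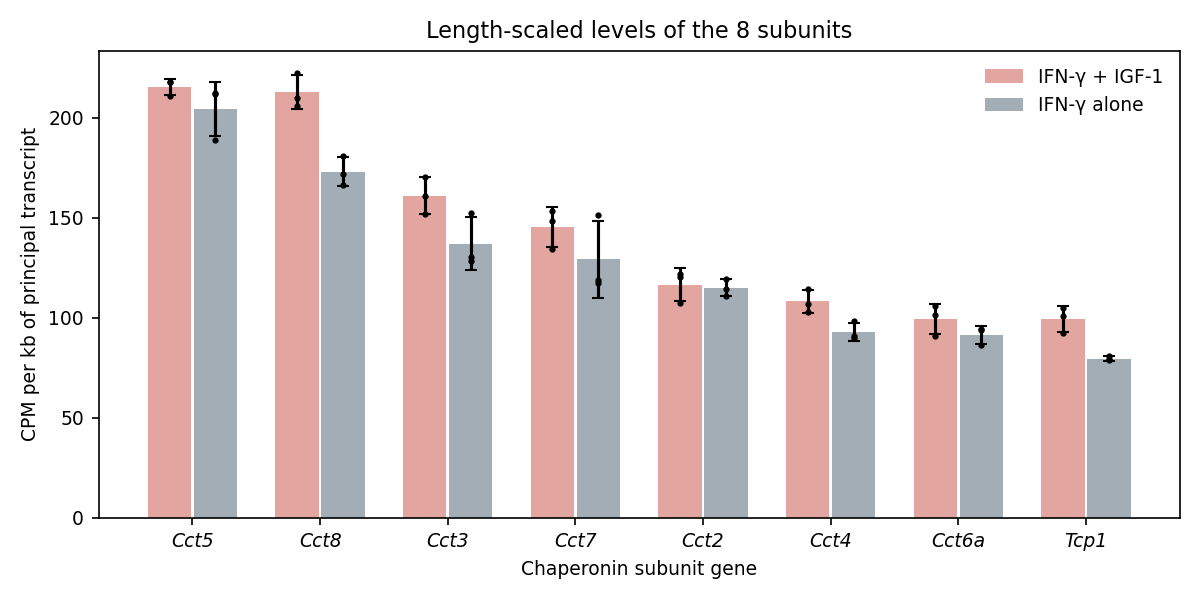
CPM per kb of principal transcript (vertical axis, from 0) for the 8 subunit genes (horizontal axis, ordered by the control mean), with IFN-γ plus IGF-1 at the left and IFN-γ alone at the right. Bars are means, error bars are SDs and dots are the 3 libraries per group. On this scale Cct5 is highest and Tcp1 lowest in controls. With IGF-1, Cct5 and Cct8 lie within their spread at the top, and Cct6a and Tcp1 at the bottom. The gap between Cct5 and Cct8 is smaller with IGF-1.

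How the subunits varied among libraries of the same group was uneven. After the group means were taken out, 19 of the 28 pairs of subunits had a positive Pearson correlation of log2 CPM over the 6 libraries, with a median of 0.197 and a range of -0.533 to 0.978. The highest were Cct3 with Cct7 (0.978), Cct4 with Cct8 (0.883) and Tcp1 with Cct2 (0.799), and the lowest was Cct2 with Cct5 (-0.533). These values rest on 6 libraries and are descriptions, since genes of a library share its depth and handling. By the same measure, the genes of at least 10 CPM on average that were most like the mean of the 8 subunits, out of 8298, were Gabarapl2 (0.996), Creb3 (0.995), Agpat3 (0.994), Ppie (0.994) and Plekhf2 (0.992). Their log2 fold changes with IGF-1 ran from -0.36 for Plekhf2 to 0.43 for Agpat3, and none was called. Being picked as the highest of 8298 over only 6 libraries, their correlations are high by selection, and they were not tested.

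Promoter windows of 7 of the 8 subunit genes, all but Cct4, were found in a RefSeq table of the build GRCm38.p6, while the deposited counts rest on GRCm39. The 250 bases before the outermost start site were searched on both strands for 5 motifs that were chosen after the sequences had been read. The stretches shown are the parts of these windows outside annotated exons for Cct8 and Cct2, subunits with a large and the smallest difference, and for Cct3 and Cct7, the pair that varied most alike. Each runs 5′ to 3′ on the gene's strand, and capitals mark motif matches (CCGGAAG, the ETS core, in Cct8 and, on the other strand, Cct2, and CCAAT, read on the other strand as ATTGG, in Cct3 and Cct7).
Cct8, chr16:87495874-87495998, minus strand: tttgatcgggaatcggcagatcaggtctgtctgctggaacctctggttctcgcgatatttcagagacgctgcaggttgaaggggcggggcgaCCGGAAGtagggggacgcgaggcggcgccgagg
Cct2, chr10:117063853-117064102, minus strand: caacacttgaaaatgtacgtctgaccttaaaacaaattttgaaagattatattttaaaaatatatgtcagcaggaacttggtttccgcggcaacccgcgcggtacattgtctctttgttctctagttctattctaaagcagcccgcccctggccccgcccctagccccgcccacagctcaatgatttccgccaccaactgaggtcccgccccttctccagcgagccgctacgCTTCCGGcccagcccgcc
Cct3, chr3:88297000-88297115, plus strand: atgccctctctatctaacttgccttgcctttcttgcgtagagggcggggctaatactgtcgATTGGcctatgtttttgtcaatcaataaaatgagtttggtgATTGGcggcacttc
Cct7, chr6:85451284-85451504, plus strand: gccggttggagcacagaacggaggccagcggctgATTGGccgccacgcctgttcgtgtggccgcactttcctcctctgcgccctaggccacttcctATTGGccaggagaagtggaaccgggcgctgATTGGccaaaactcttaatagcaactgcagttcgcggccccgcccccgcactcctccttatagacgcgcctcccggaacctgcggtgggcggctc
Over the 250-base windows, CCAAT was found in 4 of the 7 genes (Tcp1, Cct3, Cct6a and Cct7) and in 34.5% of 27026 promoters of the same length. The windows of Tcp1 and Cct6a lay wholly in annotated exons (250 of 250 bases), and that of Cct5 nearly so (245 of 250). CCGGAAG was found in 2 of the 7 (Cct2 and Cct8) and in 7.07% of promoters. Of the inverted repeats that heat shock factors bind, TTCNNGAA was in 1 of the 7 (Cct5) and in 7.18% of promoters, and GAANNTTC was in 0 of the 7 and in 6.79% of promoters. The E-box CACGTG, which MYC can bind, was in 0 of the 7 and in 6.04% of promoters. No gene's window held more than 1 kind of motif, so no matches of different motifs overlapped, and a match of letters is a description and not a bound site.

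Several subunit genes share their start region with a gene on the opposite strand in GENCODE M21: Tcp1 with the mitochondrial ribosomal protein gene Mrpl18, Cct3 with Tsacc, Cct5 with Atpsckmt (named Fam173b there), Cct6a with the serine synthesis enzyme gene Psph, Cct7 with Pradc1, and Cct8 with the noncoding transcript B130034C11Rik. Psph stood at 46.6 ± 8.57 CPM with IGF-1 and 28.8 ± 2.99 CPM in controls, in groups that did not overlap (log2 fold change 0.70, SE 0.17, adjusted p = 0.135 in edgeR), beside 0.12 for Cct6a. Mrpl18 had a log2 fold change of 0.10 (SE 0.14), beside 0.32 for Tcp1. Atpsckmt (-0.06, SE 0.19) and Pradc1 (0.03, SE 0.23) had values near 0, Tsacc and B130034C11Rik were under 5 CPM in both groups, and none of the 6 was called by edgeR as reported. DESeq2 called Psph higher (adjusted p = 0.0154), as did edgeR on all genes with a count (adjusted p = 0.0130). Tcp1, Cct6a and Cct7 overlap these partners, Tcp1 also overlaps Acat3, which averaged under 1 CPM in both groups, and Cct8 overlaps Usp16 (119 ± 13.2 CPM with IGF-1, 101 ± 5.82 CPM in controls). The library kit does not mark strand, so reads in the overlaps cannot be assigned with certainty. The table's named pseudogenes Cct3-ps1 and Tcp1-ps1 had at most 4 counts and 1 count in a library. Of the paralogs, the testis gene Cct6b averaged 0.84 CPM with IGF-1 and 0.95 CPM in controls, and Cct8l1 was too low to test. The chaperonin-like genes Mkks (0.36, SE 0.27), Bbs10 (0.43, SE 0.28) and Bbs12 (0.07, SE 0.14), which serve assembly of a ciliary complex, were not called, with 0 of the 4 tested genes of this list at an unadjusted p under 0.05 by edgeR, DESeq2 or limma-voom.

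The genes that bring substrates to the chaperonin or steer its cycle also showed no called difference by edgeR, DESeq2 or limma-voom. Of the 6 prefoldin subunits 0 were called, 2 had an unadjusted p under 0.05 by each tool, 5 had positive values and the median log2 fold change was 0.13. Pfdn1 had the largest value, at 264 ± 33.6 CPM with IGF-1 and 203 ± 31.0 CPM in controls (log2 fold change 0.38, SE 0.15, adjusted p = 0.343 in edgeR). Vbp1, which encodes prefoldin subunit 3, was the single member whose groups did not overlap, at 176 ± 3.11 CPM with IGF-1 and 148 ± 10.9 CPM in controls (0.25, SE 0.11). Pfdn4 (0.17), Pfdn2 (0.09), Pfdn6 (0.00) and Pfdn5 (-0.05) were closer to 0 on the log2 scale. Of the phosducin-like co-chaperones, Pdcl stood at 75.2 ± 6.12 CPM with IGF-1 and 58.7 ± 7.16 CPM in controls (0.36, SE 0.14, adjusted p = 0.331 in edgeR), and its groups were apart, as were those of Txndc9 (0.17, SE 0.12). Pdcl3 had a value of 0.11 (SE 0.12), Pdcl2 had 0 counts in all libraries, and none was called (1 at an unadjusted p under 0.05 by each tool).

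Among the proteins the chaperonin folds, actin and tubulin genes held the called differences. Of 11 tested members of that list, 10 had positive values, the median log2 fold change was 0.38, and 2 were called higher: Tubb6 (178 ± 27.8 CPM with IGF-1, 86.8 ± 11.7 CPM in controls, log2 fold change 1.03, SE 0.16, adjusted p = 0.0233 in edgeR) and Tuba1c (419 ± 36.7 CPM with IGF-1, 259 ± 14.4 CPM in controls, 0.69, SE 0.12, adjusted p = 0.0392 in edgeR). Tubb4b (0.52, SE 0.12), Actg1 (0.45, SE 0.12), Tubb5 (0.44, SE 0.13), Tuba1b (0.38, SE 0.13) and Actb (0.37, SE 0.19) missed the threshold, and Tubb2a had a value of -0.44 (SE 0.19). In the fits that left out 1 library the adjusted p of Tubb6 ran up to 0.167 (without control replicate 3) and that of Tuba1c up to 0.222 (without control replicate 3). The call was lost without any 1 library for Tuba1c, and for Tubb6 without any but control replicate 1. Both calls were also lost with the replicate number as a block (adjusted p = 0.0902 for Tubb6 and 0.121 for Tuba1c). Over all alternatives the log2 fold changes stayed at 0.94 to 1.16 for Tubb6 and 0.63 to 0.76 for Tuba1c. DESeq2 called 5 members higher and limma-voom 2. Of all 13483 genes tested, DESeq2 called 200 higher and limma-voom 36. Tubulin genes are close copies, so how reads were shared among them is uncertain. The cofactors that take tubulin on from the chaperonin had 0 called of 7 by each of the 3 tools, 0 at an unadjusted p under 0.05 by edgeR and DESeq2 and 1 by limma-voom, and a median of -0.12. Tbce (0.24), Tbcd (0.17) and Tbcc (0.03) had positive values, and Tbca (-0.12), Tbcb (-0.13), Tbcel (-0.26) and the small GTPase Arl2 (-0.40, SE 0.20) had negative ones.

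Substrates other than actin and tubulin had 0 called of 13 and 1 at an unadjusted p under 0.05 by each of the 3 tools, and a median of -0.06. The 4 with the smallest p were the cell cycle factor Fzr1 (-0.35, SE 0.14), the mTOR complex subunit Rptor (-0.24, SE 0.16), the G protein subunit Gnb5 (-0.66, SE 0.52) and Stat3 (-0.17, SE 0.14).

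Other chaperone systems were set beside TRiC. The cytosolic HSP70 and HSP90 list had 0 called of 17 and 0 at an unadjusted p under 0.05 by each of the 3 tools, and a median of 0.02. Its constitutive HSP70 gene Hspa8 stood at 2791 ± 325 CPM with IGF-1 and 2373 ± 144 CPM in controls (0.23, SE 0.11), Hsp90ab1 had a value of 0.11 (SE 0.10), and Dnaja1 (0.23, SE 0.12), Hsp90aa1 (0.18, SE 0.13) and Stip1 (0.18, SE 0.15) completed the 4 with the smallest p. The stress-induced Hspa1a (-0.39, SE 0.53) and Hspa1b (-0.31, SE 0.50) varied widely between libraries, and their signs turned without control replicate 3 (0.74 and 0.61). Of 6 mitochondrial chaperones 0 were called by edgeR or limma-voom and 2 by DESeq2, which called 200 of all genes higher. By each tool 2 had an unadjusted p under 0.05. Hspd1, the related chaperonin of the mitochondrial matrix, stood at 149 ± 13.5 CPM with IGF-1 and 110.2 ± 3.01 CPM in controls, in groups that did not overlap (0.43, SE 0.12, adjusted p = 0.175 in edgeR), and Hspa9 likewise (0.41, SE 0.12, adjusted p = 0.191 in edgeR). Hspe1, the lid that works with Hspd1, had a value of -0.01 (SE 0.13), Grpel1 one of 0.09 and Trap1 one of -0.08. Of the transcription factors known to act on chaperonin genes, the heat shock factor Hsf1 was at 60.0 ± 2.99 CPM with IGF-1 and 68.8 ± 12.3 CPM in controls (-0.20, SE 0.15), and Myc at 8.99 ± 2.47 CPM with IGF-1 and 12.6 ± 3.00 CPM in controls (-0.48, SE 0.29). Hsf2 (-0.06), Mycn (-0.33) and Max (0.06) completed the list, in which 0 of 5 were called and 0 had an unadjusted p under 0.05 by each tool.

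**Figure D4:**
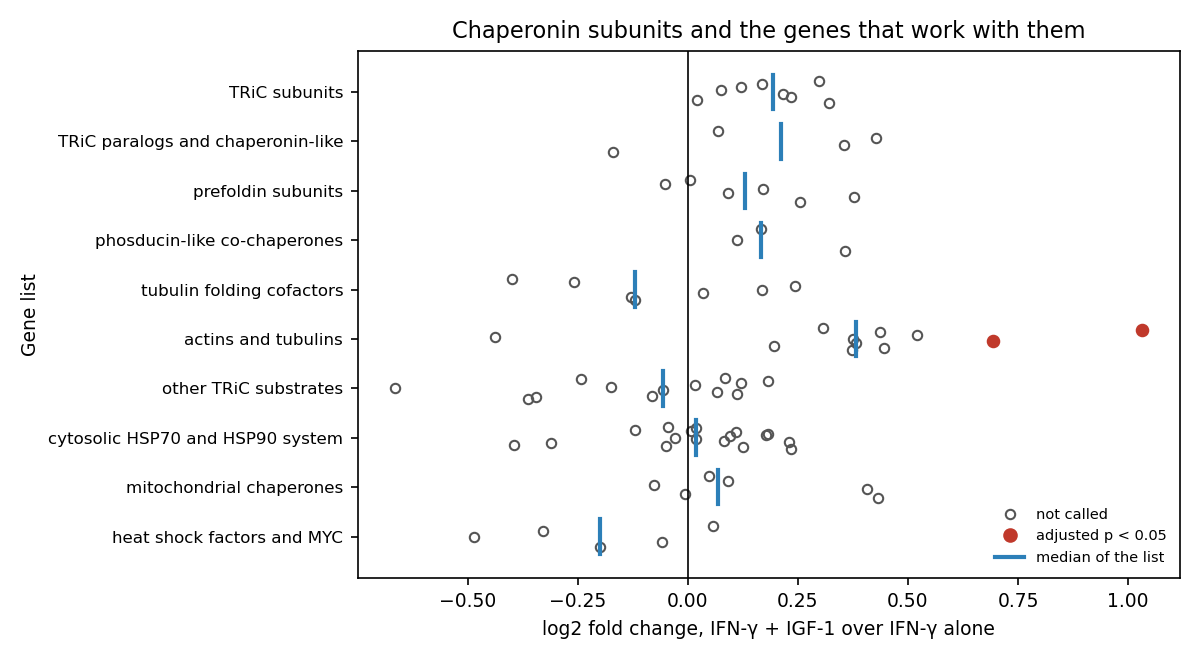
Log2 fold change of IGF-1 over control (horizontal axis) for each tested gene of the lists (vertical axis). Open points were not called, filled points passed an adjusted p of 0.05 and blue bars are list medians. The 8 chaperonin subunits lie between 0.02 and 0.32, and the filled points are the tubulins Tuba1c and Tubb6.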

How the data were processed

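The data are 6 ILC3 libraries, 3 with IFN-γ plus IGF-1 and 3 with IFN-γ alone, grouped by their titles and made with Takara's SMART-Seq HT chemistry. The authors deposited raw counts for each gene. The submitters' processing notes name featureCounts 1.5.3, SAMtools 1.15.1, HISAT2 2.2.1, fastp 0.23.2 and the build GRCm39; the annotation release, the strand setting and how multiply mapped reads were handled are not given in the labels.

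Genes were kept by filterByExpr (minimum count 10, minimum total 15), which left 13483 of 33157 rows and removed 0.0806% of counts. The difference was fitted on the whole table with edgeR 4.0.16 in R 4.3.3 (TMM, estimateDisp, glmQLFit, glmQLFTest, group as the only term) and adjusted by Benjamini-Hochberg over all genes tested. An SE is the log2 fold change divided by the square root of F, and 95% intervals use edgeR's degrees of freedom. DESeq2 1.42.0 and limma-voom (limma 3.58.1) were alternatives. The test was checked on 3 simulated datasets. It called 2.13% of 188 genes given a log2 fold change of 0.3 and 42.9% of 203 given 0.6. It called 97.1% of 209 genes given a change of 1, and 0.0493% of 38545 given none. A list with 0 called genes therefore leaves differences near 0.3 undecided. No library was a duplicate (chi-square per degree of freedom of 39.3 or more in every pair). Intervals reflect the spread between libraries as edgeR estimates it, drawing on all genes as well as the gene itself (10.4 degrees of freedom). They are not that gene's SD alone.

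The members and the lists were chosen with earlier results of these data known. Named were all 8 subunits, all prefoldin, phosducin-like and tubulin cofactor genes, from each other list the called genes, up to 4 with the smallest p and a few fixed genes, and the 5 genes most like the subunits' mean over libraries. The comparison with genes averaging 100 CPM or more, the neighbouring genes and some further list members were added after values were seen.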

Additional observations from a re-analysis of the deposited data

How the results depend on the processing

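Over 14 alternatives Tcp1, Cct3, Cct4, Cct5, Cct6a, Cct7 and Cct8 kept a positive log2 fold change, and 0 of the 8 subunits were called under any of them or at an adjusted p under 0.1. Cct2 turned negative with library size scaling alone (-0.0147) and without control replicate 1 (-0.00365), IGF-1 replicate 1 (-0.00532) or IGF-1 replicate 2 (-0.0154). Over the fits that each left out 1 library Cct2 ranged from -0.0154 to 0.0777. The median of the 8 ranged from 0.148 to 0.247 over the fits that each left out 1 library, the highest being without control replicate 1. Subunits at an unadjusted p under 0.05 numbered 2 in the reported fit, 4 without control replicate 1, 1 without IGF-1 replicate 1 and 0 without control replicate 3 or without IGF-1 replicate 2.

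Of all genes, 31 were higher and 36 lower in the reported fit. These counts were 171 and 258 with no filter, 63 and 115 with at least 10 CPM in 3 libraries, 200 and 256 with DESeq2, 57 and 87 at an adjusted p under 0.1, and 60 lower with limma-voom. Leaving out 1 library gave 0 to 24 higher and 0 to 31 lower. With the replicate number as a block 3 were higher and 5 lower, the median of the subunits was 0.197 and 0 subunits were called; the numbers did not pair the libraries (correlation of deviations -0.0518 to 0.0642, and 2 of 6 libraries correlated best with their own number). The cause of these changes was not tested.

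The alternatives were followed for 51 of the other genes named, which did not include the cell type markers. Of these 51 genes 36 kept their sign throughout and 15, none of them called, did not. Over the fits without 1 library the log2 fold changes of these 15 ranged from -0.223 to 0.0715 for Atpsckmt, -0.995 to 0.273 for Gnb5, -0.207 to 0.144 for Hsf2, -0.753 to 0.739 for Hspa1a, -0.838 to 0.609 for Hspa1b, -0.113 to 0.0789 for Hspe1, -0.0336 to 0.156 for Max, -0.0119 to 0.196 for Mrpl18, -0.608 to 0.0921 for Mycn, -0.165 to 0.0743 for Pfdn5, -0.084 to 0.109 for Pfdn6, -0.112 to 0.188 for Pradc1, -0.232 to 0.0255 for Tbca, -0.0773 to 0.0971 for Tbcc and -0.126 to 0.470 for Tbcd. Hspe1 was positive with upper quartile scaling (0.00404). Pfdn6 was negative with library size scaling (-0.0290), the stricter filter (-0.00912), the replicate block (-0.00461) and limma-voom (-0.00822), and Pradc1 with library size scaling (-0.00144).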
